A study of Mus musculus with 4 samples.

Results

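The chemokine ligands are the small secreted proteins that direct the movement of leukocytes, and here they are the genes whose array name begins with Ccl, Cxcl, Xcl or Cx3cl followed by a number. They were chosen by that name among the spots that are not controls, which gave 53 spots of 44 probes for 35 genes, out of 43379 spots, 41174 probes and 27376 names on the array. The arrays compared CD8αβ+ IELs, the T cells that carry CD8α, CD8β and the αβ T cell receptor and lie between the epithelial cells of the small bowel, with CD8αβ+ SPLs, T cells of the same phenotype from the spleen. There were 2 samples per group, each measured on its own 1-color Agilent mouse array. All samples came from WT male C57BL/6 mice of 8 to 12 weeks per the labels, with no allele or treatment that separates the groups, and each was pooled from several mice and sorted as CD45+CD3+CD8β+CD8α+TCRβ+ cells per the study's methods. A level below is the log2 of the background-subtracted intensity minus the 75th percentile of that array, so that a level of 0 is the intensity of a spot at the 75th percentile.

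Chemokines act through G protein-coupled receptors on the target cell, and they fall into the CC, CXC, XC and CX3C classes by the spacing of their first cysteines. Activated CD8+ T cells and NK cells secrete Ccl3, Ccl4, Ccl5 and Xcl1, which draw in other T cells and monocytes and, for Xcl1, cross-presenting dendritic cells with Xcr1. Epithelial cells of the small intestine make Ccl25, the ligand of the gut homing receptor Ccr9, whereas Cxcl9, Cxcl10 and Cxcl11 are induced by interferons, Ccl2 and Ccl7 attract monocytes, and Cxcl1, Cxcl2, Cxcl3 and Cxcl5 attract neutrophils.

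Promoter sequence is shown for 4 genes on which the comparison turns, a pair from the effector group with higher levels on both IEL arrays (Ccl3 and Xcl1) and a pair with lower levels there (Cxcl9 and Cxcl2). RefSeq windows were at hand for 25 of the 35 genes. Ccl4, Ccl5, Ccl2 and Ccl24 were not among them. Each line is the 250 bases before the annotated start of the gene on build GRCm38.p6, 5′ to 3′ along the gene, at chr11:83649379-83649628 (minus strand) for Ccl3, chr1:164935523-164935772 (minus strand) for Xcl1, chr5:92328080-92328329 (minus strand) for Cxcl9 and chr5:90903649-90903898 (plus strand) for Cxcl2. Capitals mark matches, on either strand, to any of 5 motifs.
Ccl3: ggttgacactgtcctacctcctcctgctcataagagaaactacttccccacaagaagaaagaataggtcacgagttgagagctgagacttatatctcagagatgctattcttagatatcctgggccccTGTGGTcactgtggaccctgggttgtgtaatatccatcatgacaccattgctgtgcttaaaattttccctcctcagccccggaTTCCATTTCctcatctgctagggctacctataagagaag
Xcl1: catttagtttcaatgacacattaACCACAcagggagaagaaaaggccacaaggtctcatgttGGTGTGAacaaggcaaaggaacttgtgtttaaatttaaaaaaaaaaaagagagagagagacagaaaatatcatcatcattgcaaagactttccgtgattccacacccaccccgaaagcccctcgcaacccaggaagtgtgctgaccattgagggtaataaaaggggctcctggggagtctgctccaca
Cxcl9: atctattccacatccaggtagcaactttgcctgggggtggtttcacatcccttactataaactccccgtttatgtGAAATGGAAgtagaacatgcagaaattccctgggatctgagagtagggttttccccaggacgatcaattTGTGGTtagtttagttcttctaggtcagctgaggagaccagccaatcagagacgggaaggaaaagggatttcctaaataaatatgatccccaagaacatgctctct
Cxcl2: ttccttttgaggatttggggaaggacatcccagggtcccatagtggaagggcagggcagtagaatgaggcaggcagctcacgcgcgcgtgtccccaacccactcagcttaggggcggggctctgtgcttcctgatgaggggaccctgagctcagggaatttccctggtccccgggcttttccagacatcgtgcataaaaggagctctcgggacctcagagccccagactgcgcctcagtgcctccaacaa
The letters searched were GGTGTGA for T-box factors, TGTGGT for RUNX factors, TGANTCA for AP-1, GAAANNGAA for IRF factors and TTCNNNGAA for STAT factors. These letters occur in 3.33%, 14%, 6.75%, 7.13% and 7.02%, respectively, of the 32851 RefSeq windows of that length. The Ccl3 window held a RUNX match and an IRF match, the Xcl1 window held a T-box match and a RUNX match, and the Cxcl9 window held a RUNX match and an IRF match. The Cxcl2 window held no match to these letters. A match describes the sequence and does not show that a factor binds it.

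The arrays of the IEL group stood apart from each other. Over the 27911 probes tested, the levels of IEL replicate 2 had a correlation of 0.992 with SPL replicate 1 and of 0.946 with IEL replicate 1, while the 2 SPL arrays had a correlation of 0.986. Slide 1 of 2 held IEL replicate 1 together with SPL replicate 2, and slide 2 held the other pair. The slide 1 pair had a correlation of 0.911, and IEL replicate 2 had one of 0.973 with SPL replicate 2 on the other slide. Results are therefore given with and without IEL replicate 2, and within each slide. The 8 T cell markers were well above background on every array, with summed levels (on the linear scale, relative to the 75th percentile) of 612 and 669 on the IEL arrays and 673 and 654 on the SPL arrays. Markers of other cells differed. The 8 epithelial markers summed to 26.7 and 7.32 on IEL replicates 1 and 2 against 4.06 and 2.24 on SPL replicates 1 and 2. The B cell markers, 6 of 7 of which were tested, summed to 4.04 and 25.2 against 31.4 and 24.9. In bulk RNA of sorted cells, more cells of a type and more RNA per cell cannot be told apart.

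A probe counted as well above background where the scanner software marked it so. On that mark, 14 of the 35 chemokine genes were detected on all 4 arrays, 3 on 3 arrays and 10 on none. IEL replicates 1 and 2 had 15 and 19 detected genes, and SPL replicates 1 and 2 had 21 and 20. The share of chemokine probes detected lay between 40.9% and 59.1% of the 44 probes, whereas that of all probes lay between 63.6% and 69.6%. All 4 effector genes were detected everywhere. The undetected genes included Ccl20, the epithelial ligand of Ccr6, Ccl11, an attractant of eosinophils, and Ccl21a, the lymph node ligand of Ccr7. Ccl1, Ccl12, Cx3cl1, Cxcl1, Cxcl12, Cxcl13 and Cxcl14 were each detected on 1 or 2 arrays without reaching both arrays of a group. Ccl1, which acts through Ccr8, was detected on both arrays of slide 2 and on neither array of slide 1. A probe was tested when it was detected on both arrays of at least 1 group, which kept 23 probes of 18 genes. The other 17 genes are described by detection only. A gene that passed through a single group had to differ in detection, so its counts below are descriptions.

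**Figure D1:**
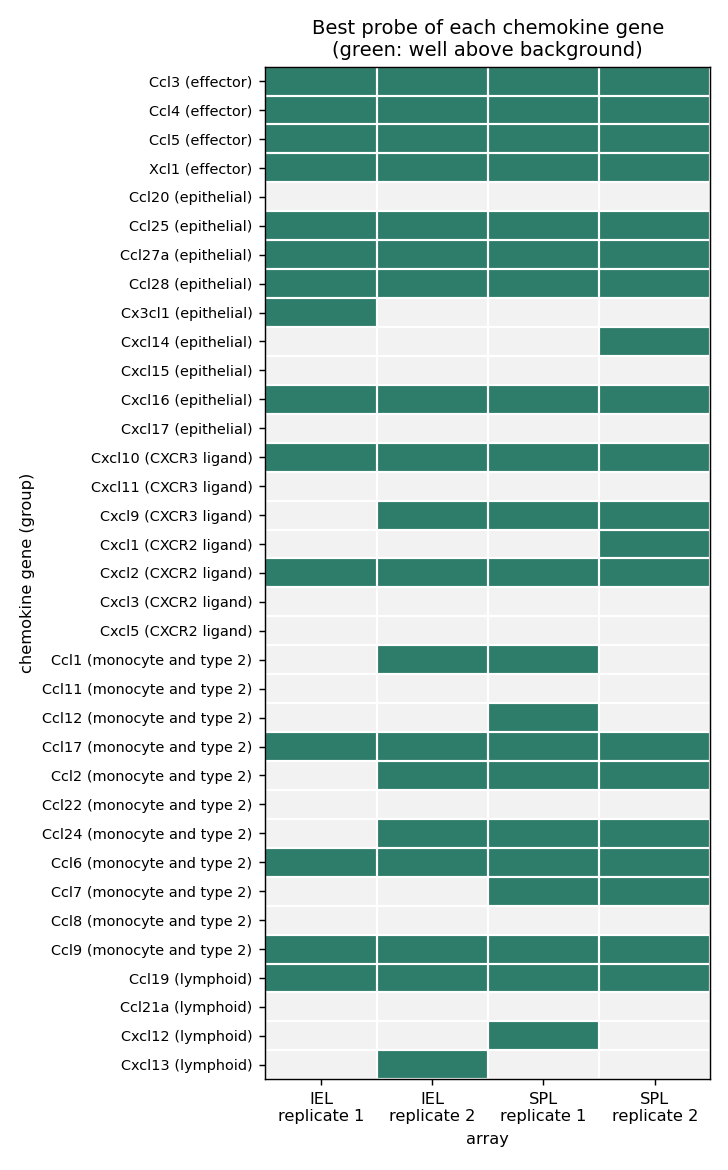
Detection of the 35 chemokine genes (rows, with their group in parentheses) on the 4 arrays (columns), taking for each gene the probe detected on the most arrays. Green tiles are well above background, and 14 genes are green on all 4 arrays while 10 are green on none.

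No chemokine probe passed the adjusted threshold of 0.05 in the limma fit, where 0 of 23 were called in either direction and 0% of all 27911 probes were called higher and 0% lower. At an unadjusted p under 0.05 in the same fit, 4 of the 23 chemokine probes were higher in IELs, where the background over all probes was 4.63%, and 1 was lower, where the background was 1.1%. That 1 probe, of Ccl7, was detected in SPLs only and passed the filter through them, so its count is no result. The methods' t-test without adjustment gave 0 higher, against 1.68% of all probes, and 1 lower (the same Ccl7 probe), against 1.25%, and it gave 0 after Benjamini-Hochberg adjustment. Of the 18 genes, 9 had both IEL arrays above both SPL arrays, against 24.6% of all 18467 gene names tested, and 5 had both IEL arrays below both SPL arrays, also against 24.6%. Of these 5, Ccl2, Cxcl9 and Ccl7 passed the filter through SPLs only. Among the 14 genes detected on all arrays, 9 lay above, against 25.7% of all gene names, and 2 below, against 23.4%. The median difference, IEL minus SPL, was 0.45 over the chemokine genes and -0.0018 over all gene names. Within slide 1 the median of the chemokine genes was 0.54, and within slide 2 it was 0.17. It was 0.13 without IEL replicate 1, 0.27 without IEL replicate 2, 0.30 without SPL replicate 1 and 0.18 without SPL replicate 2. It turned to -0.40, with all gene names at a median of -0.31, when the background was instead removed by normexp, a model of signal plus noise, and was 0.46 in a second normexp fit that omitted spots far under their local background. With 2 arrays against 2, an exact two-sided permutation test of a single gene cannot go below 0.333.

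**Figure D2:**
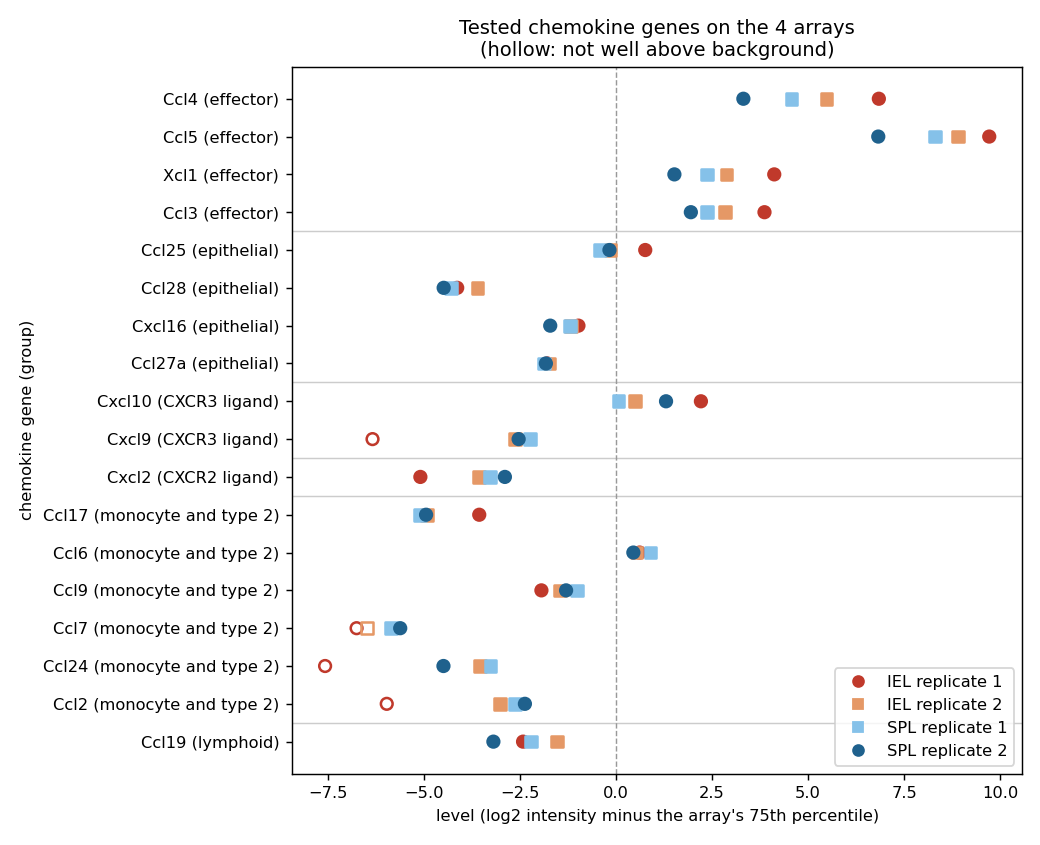
Levels of the 18 tested chemokine genes on each array, grouped by function. The x axis is the log2 intensity minus the 75th percentile of the array, each point is 1 array, and hollow points were not well above background. The 4 effector genes have their red and orange IEL points to the right of both blue SPL points, and Cxcl9, Ccl24 and Ccl2 have a hollow IEL replicate 1 point far to the left of the other 3 arrays.

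The effector chemokines had the largest positive differences among the tested chemokine genes. All 4 of their genes read higher on both IEL arrays than on both SPL arrays, where 24.6% of all gene names did so. All 5 of their probes, which include a second probe of Ccl5, did so as well. The median difference over the genes was 1.65 on the log2 scale. Ccl4 (MIP-1β), an attractant of T cells and monocytes with its probe at chr11:83478052-83478111 on mm9, had levels of 6.84 and 5.48 on IEL replicates 1 and 2 and of 4.57 and 3.31 on SPL replicates 1 and 2. The groups did not overlap, and each pair of replicates was more than 1 log2 unit apart. The difference was 2.22 (SE 0.665, n = 2 arrays per group), or 4.66-fold, with an adjusted p of 0.634 in limma. Ccl5 (RANTES), an attractant of memory T cells and monocytes, had levels of 9.72 and 8.91 in IELs and of 8.31 and 6.83 in SPLs on its probe at chr11:83339296-83339355. Its difference was 1.74 (SE 0.614), with an adjusted p of 0.634 in limma. The other Ccl5 probe, which has no mapped position, read 9.56 and 7.99 in IELs and 7.46 and 5.59 in SPLs, a difference of 2.25. Both Ccl5 probes thus placed the 4 arrays in the same order.

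Xcl1 (lymphotactin), with its probe at chr1:166862020-166862079 and its promoter shown above, had levels of 4.12 and 2.88 in IELs and of 2.36 and 1.52 in SPLs. The IEL arrays lay above the SPL arrays, but IEL replicate 2 differed less from SPL replicate 1 than from the other IEL array. The difference was 1.56 (SE 0.554), with an adjusted p of 0.634 in limma. Ccl3 (MIP-1α), a ligand of Ccr1 at chr11:83461358-83461417, had levels of 3.86 and 2.84 in IELs and of 2.37 and 1.95 in SPLs. Its difference was 1.19 (SE 0.437), or 2.29-fold, with an adjusted p of 0.634 in limma. The 4 unadjusted limma p-values under 0.05 of probes with higher levels in IELs were those of Ccl4 (0.0254), Ccl5 (0.0424 on its mapped probe), Xcl1 (0.0437) and Ccl3 (0.0475).

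All 5 effector probes ran in the order IEL replicate 1, IEL replicate 2, SPL replicate 1, SPL replicate 2, from highest to lowest. That order was found in 6 of the 23 tested chemokine probes, the other being the probe that represents Cxcl16, and in 13.8% of all tested probes. The size of the difference was not the same on both slides, each of which held its own pair of pools. On slide 1 it was 3.53 for Ccl4, 2.89 for Ccl5, 2.60 for Xcl1 and 1.92 for Ccl3, whereas on slide 2 it was 0.91, 0.60, 0.52 and 0.47 in the same order of genes. Without IEL replicate 2, the differences were 2.90 for Ccl4, 2.15 for Ccl5, 2.18 for Xcl1 and 1.71 for Ccl3. The adjusted p in limma was then 0.0298 for Ccl4, 0.0289 for Xcl1 and 0.0230 for Ccl3, and 0.0820 for Ccl5, with the lone IEL array assumed to vary like the SPL arrays. The 5 markers of NK cells, which also make these chemokines, summed to 2.57 and 3.46 on the IEL arrays and 4.27 and 3.28 on the SPL arrays. Eomes was the brightest of them on every array. Of the 5, 4 were detected on all arrays. On both IEL arrays 1 read higher and 2 read lower, where 24.6% of all gene names did so each way. Klrb1c, which encodes NK1.1, read higher, at -1.01 and -1.06 in IELs and at -1.15 and -1.52 in SPLs. Klra8 read lower, at -4.54 and -0.91 in IELs and at -0.68 and -0.76 in SPLs. Ncr1, which encodes NKp46, was not well above background on IEL replicate 1 and passed the filter through SPLs only. NK cells' part in these values was not tested.

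**Figure D3:**
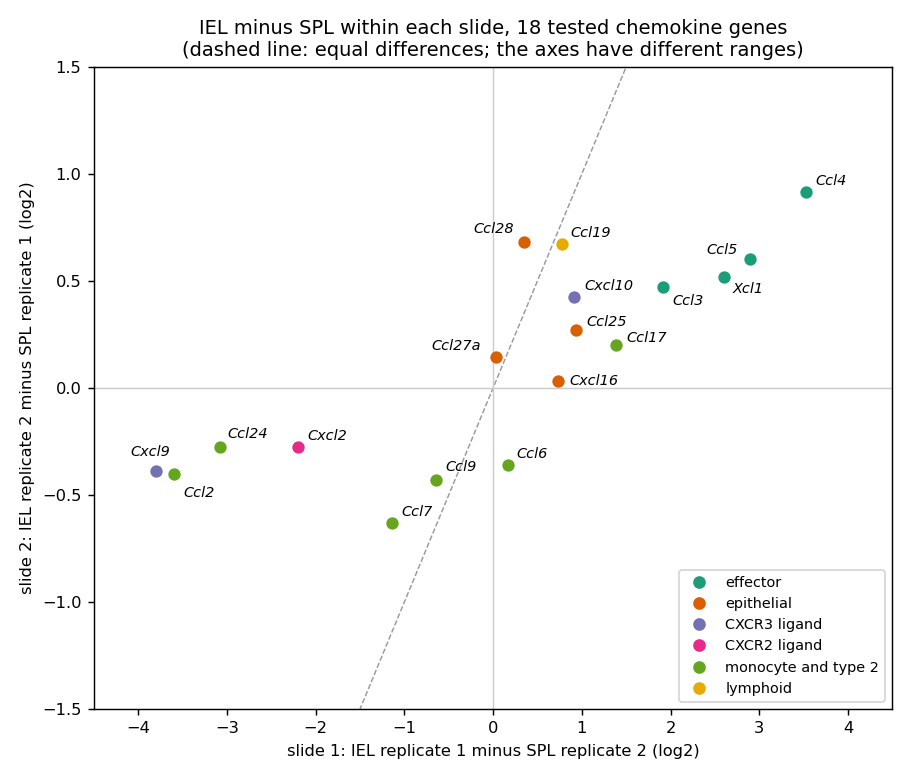
Difference between IEL and SPL on slide 1 (x axis) and on slide 2 (y axis), in log2 units, for the 18 tested chemokine genes, colored by functional group. The dashed line marks equal differences, and the axes have different ranges. Ccl4 lies at 3.53 on slide 1 and 0.91 on slide 2, and Cxcl9 at -3.80 and -0.39.

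Of the 9 genes for epithelial chemokines of mucosa and skin, 4 were tested. All 4 read higher on both IEL arrays, where 24.6% of all gene names did so. The differences were small, between 0.09 and 0.60 on the log2 scale, and none passed the adjusted threshold. Ccl25 (TECK), which recruits Ccr9+ T cells to the small intestine, had levels of 0.76 and -0.15 in IELs and of -0.42 and -0.17 in SPLs on its probe at chr8:4359916-4359975. The gap between IEL replicate 2 and the higher SPL array was within the spread of the replicates, and on the other Ccl25 probe the groups overlapped, with a difference of 0.31. Ccl28, which attracts Ccr10+ plasma cells to mucosal surfaces, had levels of -4.14 and -3.61 in IELs and of -4.29 and -4.49 in SPLs, a difference of 0.52 (SE 0.294). Cxcl16, a transmembrane ligand of Cxcr6, had levels of -0.98 and -1.18 in IELs and of -1.21 and -1.71 in SPLs, a difference of 0.38. Its other probe overlapped between the groups, with a difference of 0.14. Ccl27a, the skin chemokine that binds Ccr10, had levels of -1.79 and -1.74 in IELs and of -1.88 and -1.83 in SPLs, a difference of 0.09 (SE 0.224). Its probe matched the accessions of several near-identical copies of the gene, which it cannot tell apart.

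The adjusted p in limma was 0.634 for Ccl25 and Ccl28, 0.646 for Cxcl16 and 0.881 for Ccl27a. Ccl27a, Ccl28 and Cxcl16 changed sign under the first normexp background correction, with values of -0.41, -0.78 and -0.22 where the median of all gene names was -0.31. All 8 epithelial markers read higher on both IEL arrays, by a median of 3.40, where 24.6% of all gene names did so. The part of epithelial cells in the values of the epithelial chemokines was not tested. Krt8, an epithelial keratin, had levels of 2.73 and -0.51 in IELs and of -1.99 and -4.64 in SPLs. Ccl25 had its highest level on IEL replicate 1, as did the summed epithelial markers, whereas Ccl28 had its highest level on IEL replicate 2. The other 5 genes of the group, Ccl20, Cx3cl1, Cxcl14, Cxcl15 and Cxcl17, did not reach detection on both arrays of a group.

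The interferon-inducible ligands of Cxcr3 did not share a pattern. Cxcl9 (MIG), at chr5:92752191-92752250 and with its promoter shown above, had levels of -6.34 and -2.63 in IELs and of -2.24 and -2.54 in SPLs. It was not well above background on IEL replicate 1, whereas IEL replicate 2 lay just below SPL replicate 2. The difference was -2.10 (SE 1.28), with an adjusted p of 0.634 in limma. It was -3.80 on slide 1, where the IEL value is a background reading, and -0.39 on slide 2. Under the first and the second normexp correction it was -0.79 and -0.37. Cxcl10 (IP-10), its neighbor at chr5:92775781-92775840, had levels of 2.21 and 0.49 in IELs and of 0.07 and 1.30 in SPLs. Here IEL replicate 1 was the highest array, and the groups overlapped. Cxcl11 was not detected on any array. Cxcr3, the receptor of all of these ligands, had levels between 3.12 and 3.89 and overlapped between the groups.

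Of the 11 monocyte, macrophage, eosinophil and type 2 chemokines, 6 were tested. Of these, 3 read lower on both IEL arrays, 1 read higher and 2 overlapped, where 24.6% of all gene names read lower and 24.6% higher. Among the lower genes, Ccl2 and Ccl7 passed the filter through SPLs only, so the count is a description. Ccl2 (MCP-1), the main ligand of Ccr2, was measured by 10 spots at chr11:81850650-81850709. Its levels were -5.97 and -3.03 in IELs and -2.63 and -2.37 in SPLs, with IEL replicate 1 not well above background and far below the other 3 arrays. The difference was -1.9997 (SE 1.03), with an adjusted p of 0.634 in limma, and it was -3.60 on slide 1, again against a background reading, and -0.40 on slide 2. Under the first and the second normexp correction it was -0.91 and -0.40. Ccl7 (MCP-3), another ligand of Ccr2, was well above background on both SPL arrays and on neither IEL array. Its measured difference was -0.88. The lowest detectable signal bounds this difference only as at least 1.02-fold higher in SPLs.

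Ccl24 (eotaxin-2), a ligand of Ccr3 on eosinophils, had levels of -7.58 and -3.55 in IELs and of -3.27 and -4.49 in SPLs. The groups overlapped, with a value of -4.03 for IEL replicate 1 minus IEL replicate 2. Its other probe read -5.81 and -4.31 in IELs and -3.96 and -5.19 in SPLs, again with IEL replicate 1 the lowest array and not well above background. Ccl17 (TARC), a ligand of Ccr4, was the gene of this group with higher IEL levels, of -3.56 and -4.91 against -5.11 and -4.95, a difference of 0.79. IEL replicate 2 was close to both SPL arrays. The remaining genes were Ccl9, a ligand of Ccr1 that read lower on both IEL arrays by 0.54, and Ccl6, also a ligand of Ccr1, whose difference was -0.10 with overlapping groups.

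Of the 4 ligands of Cxcr2, only Cxcl2 (MIP-2) was tested. It had levels of -5.10 and -3.57 in IELs and of -3.29 and -2.90 in SPLs, with IEL replicate 1 the lowest array. The difference was -1.24 (SE 0.580), with an adjusted p of 0.634 in limma, and it was -2.20 on slide 1 and -0.28 on slide 2. Under the first and the second normexp correction it was -0.89 and -0.10. Among the chemokines that organize lymphoid tissue, Ccl19, a ligand of Ccr7, was the only gene tested. The probe that represents it had a difference of 0.72 and its other probe one of -0.86, and the groups overlapped on both. Cxcl12, Cxcl13 and Ccl21a did not reach detection on both arrays of a group.

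When IEL replicate 2 was left out, 9 of the 23 chemokine probes passed the adjusted threshold in limma. Of these, 4 were higher in IEL replicate 1 (Ccl3, Ccl4, Xcl1 and Ccl17), where the background was 8.53% of all probes. The other 5 were lower (Ccl2, Cxcl2, Cxcl9, 1 probe of Ccl24 and the other probe of Ccl19), where the background was 11%. Of these 5, all but the Cxcl2 probe were not well above background on IEL replicate 1 and passed the filter through SPLs, so that leaving the other IEL array out set a background reading against SPLs, and nothing is read from their count or their p-values. Cxcl2 was detected on all arrays, and its difference without IEL replicate 2 was -2.004. Its level of -5.10 on IEL replicate 1 was close to the lowest detected level of that array, -5.68. Each call and difference without IEL replicate 2 rests on a single IEL array. When any other array was left out, no chemokine probe passed, with a count of 0 in each case, and Ccl24 turned to 0.34 without IEL replicate 1.

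The macrophage and neutrophil markers summed lowest on IEL replicate 1, the array on which Ccl2, Cxcl2, Cxcl9 and Ccl24 were lowest. The 8 macrophage and monocyte markers summed to 1.12 and 7.85 on the IEL arrays and to 10.1 and 4.46 on the SPL arrays, and 2 of the 8 read lower on both IEL arrays, a share near the 24.6% of all gene names. Of the 8, 7 were detected on all arrays, and C1qa was not well above background on IEL replicate 1. Cd68 was at -0.65 and -0.73 in IELs and at -0.51 and -1.38 in SPLs, with overlapping groups. The neutrophil markers, of which 6 of 8 were tested, summed to 0.224 and 35.8 in IELs and to 44.4 and 50.01 in SPLs. All 6 read lower on both IEL arrays, where 24.6% of all gene names did. S100a8, Ngp, Camp and Ltf passed the filter through SPLs only, so this count is a description. S100a8, an abundant neutrophil gene, was at -6.41 on IEL replicate 1, where it was not well above background, and at 2.34 on IEL replicate 2. The sum of the dendritic cell markers was highest on IEL replicate 1, with 9.28 and 4.24 in IELs against 3.13 and 1.53 in SPLs. Itgax was the brightest of them on every array, so the sum mostly follows that gene. Itgax and Zbtb46 were highest on IEL replicate 1, whereas Clec9a, Siglech and Cd209a were lowest there. The part of these cells in the levels of Ccl2, Cxcl2, Cxcl9 and Ccl24 was not tested. The effector chemokines had their highest levels on IEL replicate 1. There the macrophage and neutrophil markers summed lowest, and the epithelial and dendritic cell markers summed highest. The part of these cells in the effector levels was not tested.

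**Figure D4:**
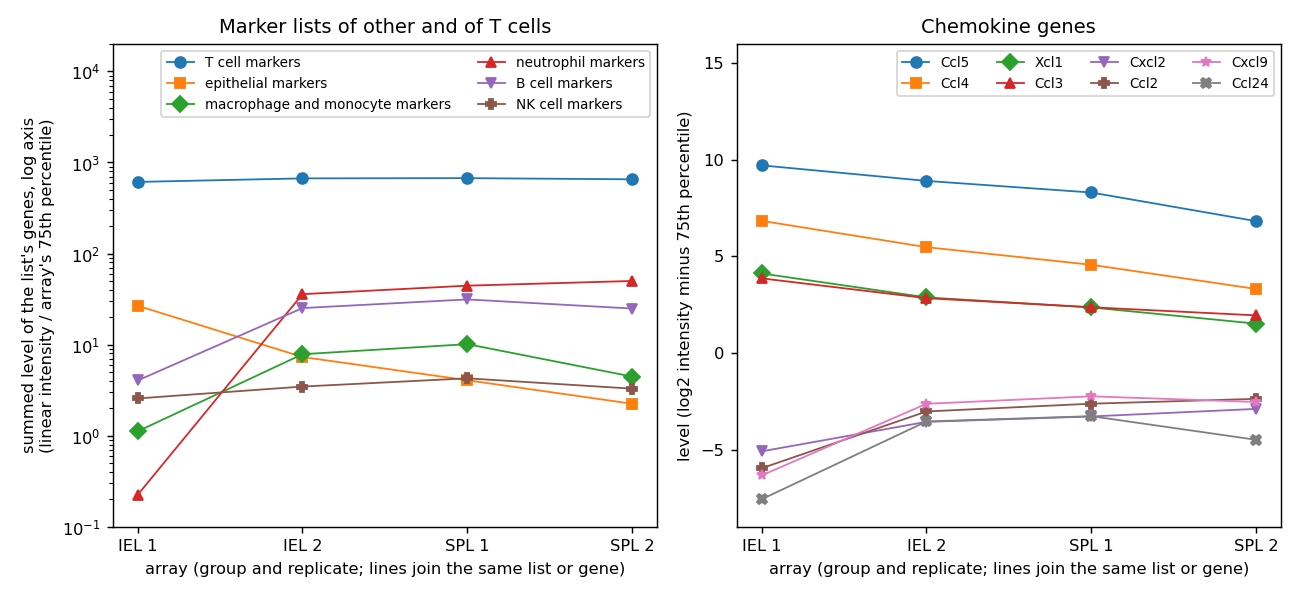
Left, summed level of each marker list on the 4 arrays (linear intensity relative to the 75th percentile of the array, on a log axis). Right, levels of 8 chemokine genes on the same arrays in log2 units. The T cell markers lie between 612 and 673 on all arrays, the neutrophil markers lie at 0.224 on IEL replicate 1 and between 35.8 and 50.01 elsewhere, and Ccl2, Cxcl2, Cxcl9 and Ccl24 are lowest on IEL replicate 1.

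Genes that lie next to each other did not share a direction throughout. On chromosome 11 (mm9), the 5 genes Ccl5, Ccl9, Ccl6, Ccl3 and Ccl4 lie within 139 kb, from 83339296 to 83478111, and all were tested. Ccl5, Ccl3 and Ccl4 read higher on both IEL arrays, Ccl9 read lower and Ccl6 overlapped. The 6 genes Ccl2, Ccl7, Ccl11, Ccl12, Ccl8 and Ccl1 lie within 140 kb on the same chromosome, from 81850650 to 81990395. In that stretch only Ccl2 and Ccl7 were tested, and both read lower on both IEL arrays. Both passed the filter through SPLs only, so no shared direction is read from them. On chromosome 5, Cxcl9, Cxcl10 and Cxcl11 lie within 38.1 kb. Cxcl9, which also passed the filter through SPLs only, read lower while Cxcl10 overlapped.

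Of the 17 receptor genes of the list, 13 were tested, of which 2 (Ccr9 and Cxcr6) read higher and 4 lower on both IEL arrays, where 24.6% of all gene names did so each way, and none passed the adjusted threshold. Ccr9, the receptor of Ccl25, had levels of 4.81 and 4.40 in IELs and of 3.996 and 3.77 in SPLs, a difference of 0.72. Xcr1, the receptor of Xcl1, overlapped between the groups, with a difference of 0.18. Ccr7, the receptor of Ccl19 and Ccl21a that guides naive T cells into lymphoid tissue, had levels of 1.60 and 4.89 in IELs and of 5.33 and 5.79 in SPLs, a difference of -2.31. It was -4.19 on slide 1 and -0.44 on slide 2. Cxcr4, Cxcr5 and Cxcr2 were the other receptors with lower levels on both IEL arrays. Cxcr4 had a difference of -2.57, which was -4.47 on slide 1 and -0.67 on slide 2. Cxcr5 and Cxcr2 were not well above background on IEL replicate 1 and passed the filter through SPLs only, so the count of lower receptors is a description. On slide 2 their differences were -0.395 and -0.25. Cxcr5 marks B cells as well as some T cells, and the B cell markers summed lowest on IEL replicate 1. The part of B cells in the levels of Cxcr5 was not tested.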

How the data were processed

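The authors deposited the scanner output of 4 Agilent 1-color arrays, written by Feature Extraction 10.7.3.1 per the file headers, whereas the submitters' processing notes name 10.7.1.1 and the methods in the paper name PrimeView chips. Per the file headers, the intensity values of the 45018 spots were made by the scanner software, which subtracted a fitted background within each array before they were deposited, with no scaling across arrays. A matrix of log2 values that the authors deposited for these arrays served as an alternative. Read depth does not apply to arrays, whose number limits the precision.

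Here, the log2 of the intensity was scaled by the 75th percentile over spots that are not controls (312, 435, 479 and 605 units for IEL replicates 1 and 2 and SPL replicates 1 and 2). Between 98 and 179 spots per array with an outlier mark were left out, and 0 spots were saturated. Repeat spots were averaged, and 27911 probes well above background on both arrays of a group were tested in R 4.3.3 with limma 3.58.1 (files were read by data.table, version 1.17.8), two-sided, with Benjamini-Hochberg adjustment over all of them and a threshold of 0.05. The model was tested on simulated data. A gene was represented by its tested probe with the highest mean level.

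Values on all arrays are given for tested genes of the effector and epithelial groups, and for others with a difference of at least 1 and separate groups or with replicates at least 2 log2 units apart. Other chemokine genes with such values were named after these were seen. The members, functional groups and lists were chosen with earlier results of these data known. Each sample was sorted from pooled mice per the paper. The pools of a group lay on different slides and scan runs, so p-values measure the spread between pools, slides and scan runs together. Positions of probes are those of the array annotation on mm9, for which no gene models were used here. Same-numbered arrays deviated from their group means with a correlation of -0.025. That value cannot tell whether the replicate numbers pair the pools, so the main fit had no block, and replicate number and slide were each tried as one. Alternatives covered normalization, background correction, filters, variance model, test, blocks, slides, and leaving out each array.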

Additional observations from a re-analysis of the deposited data

How the results depend on the processing

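Of the values of single named genes under the alternatives, 5 changed sign. A further 225 kept their direction and, where a p was fitted, their side of the threshold. The others passed it without IEL replicate 2, in a fit with a single IEL array, Ccl2, Cxcl9 and Ccl24 among them on a background reading. Values within a slide have no p. A change of filter, variance model, test or block leaves the difference as it is, so the direction could not change there. Among those that kept their side, the sizes of the lower genes shrank under the first and the second normexp correction, to -0.91 and -0.40 for Ccl2, -0.79 and -0.37 for Cxcl9 and -0.89 and -0.10 for Cxcl2. The count of chemokine probes called was 0 in most settings, 1 in the methods' t-test without adjustment, and between 0 and 9 when 1 array was left out, with 9 without IEL replicate 2. The replicate number as a block changed no call (0 probes called, median 0.45), and neither did the slide as a block. The median difference of the chemokine genes was -0.40 under the first normexp correction, where the median of all gene names was -0.31. It was 0.17 on slide 2 alone, 0.18 with the mean over the probes of a gene, and between 0.13 and 0.30 when 1 array was left out. The median of all gene names moved to 0.14 under the second normexp fit, which omitted spots over 20 units under their local background, and to 0.16 without a filter on dim probes. The genes with both IEL arrays below both SPL arrays numbered 3 under the second normexp fit (19.3% of all gene names) and 2 among those well above background on all arrays (23.4%), a filter that leaves 14 genes. Those with both IEL arrays above numbered 18 of 35 without a filter, where 35.4% of all gene names did. Under the first normexp correction Ccl27a was at -0.41, Ccl28 at -0.78 and Cxcl16 at -0.22. Ccl24 was at 0.10 under the second fit, and between -3.69 (a background reading against SPLs) and 0.34 when 1 array was left out. Except where the number of genes or arrays changed, the cause was not tested. Dim genes are limited by the background, since Ccl2, Cxcl9 and Ccl24 on IEL replicate 1 and Ccl7 on both IEL arrays were not well above it.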

Other observations

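The platelet chemokines Pf4 (Cxcl4) and Ppbp (Cxcl7), whose gene symbols lack the Cxcl prefix and which were therefore not among the 35 genes, were, like Cxcl9, lowest on IEL replicate 1. Pf4 had levels of -7.06 and -0.61 in IELs and of -0.20 and 0.56 in SPLs, and Ppbp had levels of -7.39 and -1.28 in IELs and of -0.89 and -0.27 in SPLs. Neither was well above background on IEL replicate 1, and neither passed the adjusted threshold in limma (0.634 for both). Of the 6 platelet markers, 5 read lower on both IEL arrays, where 24.6% of all gene names did. Among these, Gp9 and Gp1ba were not well above background on IEL replicate 1 and passed the filter through SPLs only. Gp9, a subunit of the platelet receptor for von Willebrand factor, was at -7.49 and -2.36 in IELs against -2.14 and -1.38 in SPLs.

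The atypical receptors, which lack classical signaling, were tested for 4 of 5 genes. Of them, 2 read lower on both IEL arrays, where 24.6% of all gene names did. These were Ackr3 (listed as Cxcr7) and Ccrl2, with differences of -0.97 and -0.49. Ackr3 was not well above background on IEL replicate 1 and passed the filter through SPLs only. Of the dendritic cell markers, 5 of 6 were tested, and Itgax, which encodes CD11c, was at 3.12 and 1.91 in IELs and at 1.45 and 0.29 in SPLs. Cd209a read lower on both IEL arrays, with a difference of -0.37, and Flt3, Clec9a and Zbtb46 overlapped. Of the 10 stromal and endothelial markers, 5 were tested, with 2 higher and 1 lower on both IEL arrays. The share of all gene names was 24.6% each way. Ccr1, a receptor of Ccl3 and Ccl5, read 6.63 on SPL replicate 2 and was not well above background on the other 3 arrays, and it was not tested.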
